A study of Mus musculus with 2 samples.

Results

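Monocytes were followed in dissociated mouse adrenal glands at 2 ages. They were picked by a gate on the transcripts of each cell. It asked for at least 10 unique molecular identifiers (UMIs, 1 per captured RNA molecule) over Ly6c2, Chil3, Plac8 and Ccr2. At least 1 UMI of Csf1r was also needed. Genes that mark macrophages, granulocytes, type 1 and plasmacytoid dendritic cells, T cells and B cells had to be low or absent. The gate took 317 of 19135 cells, 120 of 8608 at 6 weeks and 197 of 10527 at 9 weeks. Since the counts of these genes chose the cells, their levels are given below as a description.

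Both libraries came from female C57BL/6J mice of the genotype SF1-Cre+;Znrf3Fx/Fx, in which a Cre recombinase driven by the SF1 promoter, active in the steroid-producing cells of the adrenal cortex, removes Znrf3, a ubiquitin ligase that restrains Wnt signalling. The 6-week library pooled 2 adrenals and the 9-week library 3 adrenals, with 1 library per age and no library from glands that keep Znrf3, so every difference below is between 2 libraries, has no replicate check and was given no test. The monocytes carry the floxed alleles but do not use the SF1 promoter. The series asks how the immune cells of this gland differ between these ages.

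Classical monocytes are made in the bone marrow, leave it through the chemokine receptor Ccr2, and circulate as Ly6c2-high cells that enter tissues and become macrophages or cells that resemble dendritic cells. A second, non-classical kind is derived from them under the transcription factor Nr4a1, carries little Ly6c2, and patrols the inside of vessels with the receptor Cx3cr1. Monocytes answer interferons strongly: interferon gamma, made by T and NK cells, acts on chemokines, on guanylate-binding proteins and on antigen presentation.

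The gated cells were of similar depth at both ages. They held 959455 UMIs at 6 weeks and 1654741 at 9 weeks, with medians of 6788.5 and 7703 UMIs and 2222 and 2427 genes per cell. No cell barcode of a gated cell was found in the other library, although 29 barcodes were shared over all cells. Levels below are UMIs summed over the gated cells of a library, per 1000000 UMIs of those cells (CPM), with exact Poisson 95% intervals. For shares of cells the 95% interval is the exact one of Clopper and Pearson. Both kinds cover counting error only, and neither covers the spread between animals. The Poisson intervals also leave out the spread of UMIs between cells, so they are too narrow for genes whose UMIs lie in few cells. Ly6c2 has a near-identical neighbour, Ly6c1, so reads could be split between them and its counts are uncertain.

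Some gated cells also carried transcripts of another lineage. With thresholds chosen after the data were seen, 10 cells at 6 weeks and 18 at 9 weeks held adrenocortical markers (6 and 5 cells), endothelial markers (3 and 10) or markers of T and NK cells (4 and 5). These cells were deep, with median UMIs of 20888.5 and 11682.5, and contributed 21.8% and 16.3% of the summed UMIs. Scrublet, a doublet caller, marked 7 and 14 gated cells, all of them among these mixed cells. Doublets were not removed from the gate, and values without the mixed cells, over 110 and 179 cells, are given beside those they move. Summed over 7 markers, the adrenocortical level in the gate was 3206 CPM at 6 weeks and 1376 CPM at 9 weeks, and 174 and 80.2 CPM without the mixed cells.

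The label of classical monocytes described only some of the gated cells. As a description, since the gate used it, the summed Ly6c2 level was 1346 CPM (1273 to 1421) at 6 weeks and, at 9 weeks, 2136 CPM (2066 to 2207), against 13.4 and 56.3 CPM in C1q macrophages of the same libraries. F13a1, the A chain of coagulation factor XIII and the one marker of the label that the gate did not use, was at 328 CPM (293 to 367) and 464 CPM (431 to 498), against 81.0 and 18.1 CPM in macrophages and 0 and 4.1 CPM in neutrophils. However, 22 gated cells at 6 weeks (18.3%) and 23 at 9 weeks (11.7%) held no Ly6c2 UMI, and many carried transcripts of non-classical monocytes or class II genes, as described below. The cells are therefore called gated monocytes here.

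**Figure D1:**
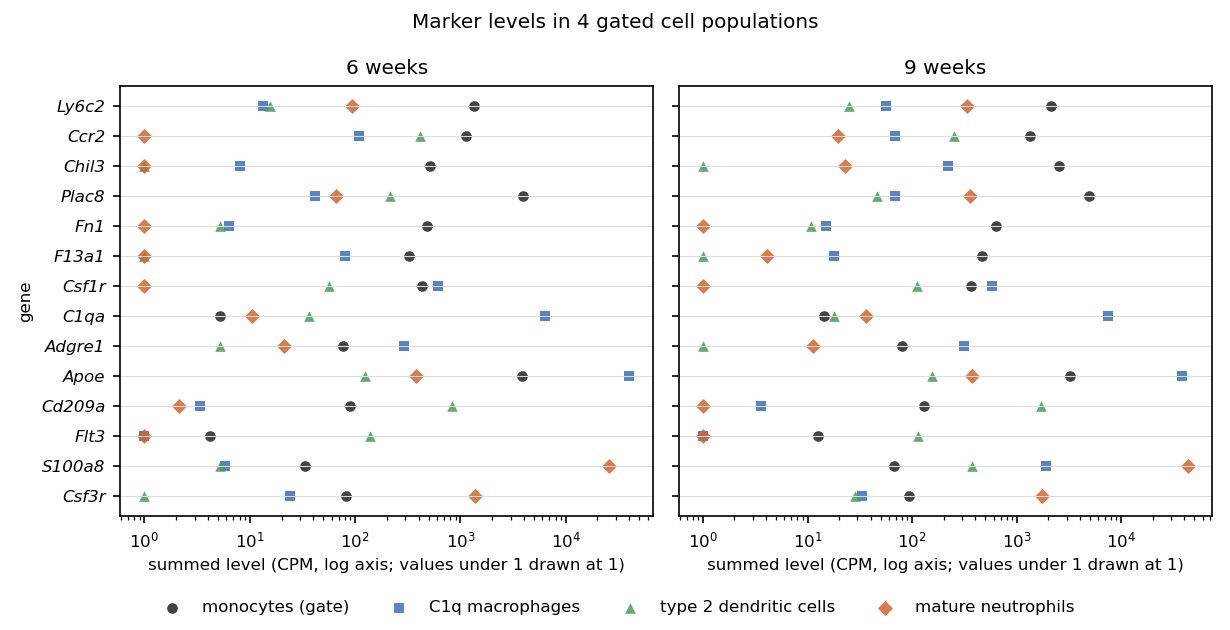
Summed levels (CPM, log axis) of 14 marker genes in 4 gated cell populations at 6 weeks (left) and 9 weeks (right), 1 library per age, with no error bars. Black circles are the gated monocytes: they lie to the right of the other populations for Ly6c2, Ccr2, Chil3, Plac8, Fn1 and F13a1, between macrophages and the other populations for Apoe and Adgre1, and far to the left of macrophages for C1qa.

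The gate was compared with 3 other gates: C1q macrophages, with at least 20 UMIs of the complement genes C1qa, C1qb and C1qc (968 and 2341 cells), type 2 dendritic cells (18 and 30 cells) and mature neutrophils (130 and 343 cells). The neutrophil gate set no bound on Elane, Prtn3, Mpo and Ctsg, genes of immature granulocytes. In it, 8 immature granulocyte markers summed to 23.3 CPM at 6 weeks and 1887 CPM at 9 weeks, with Elane at 0 and 590 CPM. Its cells were therefore not alike at the ages, which limits each comparison with neutrophils below. Outside the genes of the gate, and among genes of at least 100 CPM in both libraries, the one that stood furthest above all of them was Fn1, which encodes fibronectin. It was at 485 CPM (442 to 531) at 6 weeks and, at 9 weeks, at 630.3 CPM (593 to 669.8), at least 31.8 times the level in any of the 3 gates once 5 CPM are added to each. Next by this measure were Nupr1 (6.6 times), Ifi205 (5.0), Hopx (4.9), Arl5c (4.6), Tppp3 (4.3) and F13a1 (3.9). The lysozyme gene Lyz2 was by far the most abundant of the 15 genes that were taken, at 27005 and 32276 CPM, and the antiviral membrane gene Ifitm3 followed with 4379 and 4926 CPM. In these 15 genes the higher level was at 6 weeks for some, such as Arl5c (188 and 117 CPM), and at 9 weeks for others, such as Smpdl3a (322 and 497 CPM).

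Markers of other cells were low for some kinds and not for others. The 5 stromal markers summed to 1.0 CPM at 6 weeks and were at 0 at 9 weeks, which allows up to 1.81 CPM. Such limits beside a 0, here and below, stand for 3 counts of the total and are not the upper ends of the exact intervals. The macrophage markers Adgre1 and Apoe were present, at 76.1 and 79.8 CPM and at 3843 and 3207 CPM, and Folr2, a marker of resident macrophages, was at 0 in both libraries. Over 9 macrophage markers the sum was 3972 and 3403 CPM, against 57446 and 58379 CPM in the C1q macrophages. Type 2 dendritic markers, 6 in number, summed to 167 and 267 CPM, with a median cell at 0 at both ages. Type 1 dendritic markers summed to 509 and 495 CPM, of which Irf8 was at 301 and 284 CPM. Plasmacytoid dendritic markers summed to 318 and 370 CPM, with Bst2 at 315 and 366 CPM. Neutrophil markers summed to 213 and 301 CPM, and markers of B and plasma cells to 179 and 210 CPM.

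The edges of the gate ran through related cells. The cells just inside the lower bound of the positive genes, with 10 to 12 UMIs, were 6 at 6 weeks and 7 at 9 weeks, and they had little Ly6c2 (16.1 and 72.8 CPM) and more Cd209a (258 and 1675 CPM). Those just outside it, with 7 to 9 UMIs, were 3 and 6 cells with 63.5 and 54.5 CPM of Ly6c2 and 190.5 and 1362 CPM of Cd209a. A total of 115 and 128 cells failed the gate by this bound alone, 42 and 76 by lack of a Csf1r UMI alone, and 37 and 68 by C1q alone.

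Gated monocytes were 1.39% (1.16 to 1.66) of all cells at 6 weeks and 1.87% (1.62 to 2.15) at 9 weeks. The ratio of these shares was 1.34, with a range of 0.974 to 1.86 from the bounds of both intervals. Among cells with a UMI of Ptprc, the gene of the leukocyte antigen CD45, the order was the other way, with 5.16% (4.30 to 6.15) at 6 weeks and 2.96% (2.56 to 3.40) at 9 weeks. C1q macrophages were 11.2% and 22.2% of all cells, a ratio of 1.98 (1.80 to 2.18). Of the gated monocytes and C1q macrophages as one pool, monocytes were 11.03% (9.23 to 13.04) at 6 weeks and 7.76% (6.75 to 8.87) at 9 weeks. Against mature neutrophils they were 48.0% (41.7 to 54.4) and 36.5% (32.4 to 40.7) of both. The type 2 dendritic gate took only cells outside the monocyte gate. It asked for at least 1 UMI each of Flt3 and Cd209a and at least 50 UMIs over H2-Aa, H2-Ab1, H2-Eb1 and Cd74. The monocyte gate set no bound on Flt3 or Cd209a, and 105 and 168 of its cells held neither. With cells assigned in this order, monocytes were 87.0% (80.2 to 92.1) and 86.8% (81.7 to 90.9) of both. This balance depends on that order. A sort for viable cells preceded capture, and its yield by cell type and the number of pooled glands cannot be told apart from age in these shares.

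The gated cells varied along 2 further axes, non-classical genes and class II genes, and were split by thresholds set after the data were seen. These are ranges of a count and not separate types. The first range took cells with at least 2 UMIs over Ace, Treml4 and Spn, 3 genes of non-classical monocytes. It held 47 cells (39.2%, 30.4 to 48.5) at 6 weeks and 45 cells (22.8%, 17.2 to 29.3) at 9 weeks. The second took the remaining cells with at least 20 UMIs over H2-Aa, H2-Ab1, H2-Eb1 and Cd74, which serve antigen presentation on class II molecules, with 28 cells (23.3%, 16.1 to 31.9) and 52 cells (26.4%, 20.4 to 33.1). The rest, called the Ly6c2 range here, held 45 cells (37.5%, 28.8 to 46.8) and 100 cells (50.8%, 43.6 to 57.9). Ly6c2 did not define this range. Its summed level was 1888 and 2360 CPM there and 1319 and 1449 CPM in the first range. In the class II range Ly6c2 was at 802 and 2274 CPM. At 9 weeks its intervals in the Ly6c2 range (2257 to 2465) and the class II range (2135 to 2419) overlapped.

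The first cut lies within a continuum: 14 and 17 cells sat on it with exactly 2 UMIs, and 20 and 43 cells were just under it with 1 UMI. The class II cut was cleaner, with 2 and 5 cells at 20 to 25 UMIs and 0 and 3 cells at 15 to 19. With every cell thinned to 2000 UMIs (0 and 1 shallower cells left out), 33.3% and 20.4% of the gated cells had a UMI of Ace, Treml4 or Spn, a ratio of 0.612 (0.353 to 1.07). Unthinned, these shares were 55.8% and 44.7%. In mature neutrophils, thinned alike, they were 2.44% and 2.94%, from a median depth of 1649 and 1983 UMIs before thinning. These are shares of 41 and 170 neutrophils, with 89 and 173 shallower ones left out. The share of gated cells with at least 5 class II UMIs at 2000 UMIs was 37.5% (28.8 to 46.8) and 37.2% (30.5 to 44.4), and 47.5% and 49.7% unthinned.

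The 3 ranges differed in genes that did not define them. The non-classical transcription factor gene Nr4a1 was at 226 CPM (180 to 282) in the first range at 6 weeks, against 30.6 CPM in the class II range and 60.9 CPM in the Ly6c2 range. Eno3, the muscle form of enolase, was at 201 and 101 CPM in the first range and at 6.8 CPM or less in the other ranges at both ages. F13a1, a gene of classical monocytes, was highest in the Ly6c2 range, at 676 and 698 CPM. It was at 195 and 263 CPM in the first range and at 119 and 178 CPM in the class II range. The same order held for Hp, which encodes haptoglobin, with 917 and 995 CPM in the Ly6c2 range and 139 and 214 CPM in the class II range. Not every such gene followed it. Plac8 was at 5226 and 4969 CPM in the first range and at 4517 and 5172 CPM in the Ly6c2 range. Ccr2 was at 983 and 1515 CPM in the class II range and at 1680 and 1462 CPM in the Ly6c2 range. Cd209a, a lectin gene of type 2 dendritic cells and of monocytes that resemble them, was at 269 and 335 CPM in the class II range and at 16.0 and 29.4 CPM in the Ly6c2 range. In the first range Cd209a was at 2.8 and 112 CPM.

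**Figure D2:**
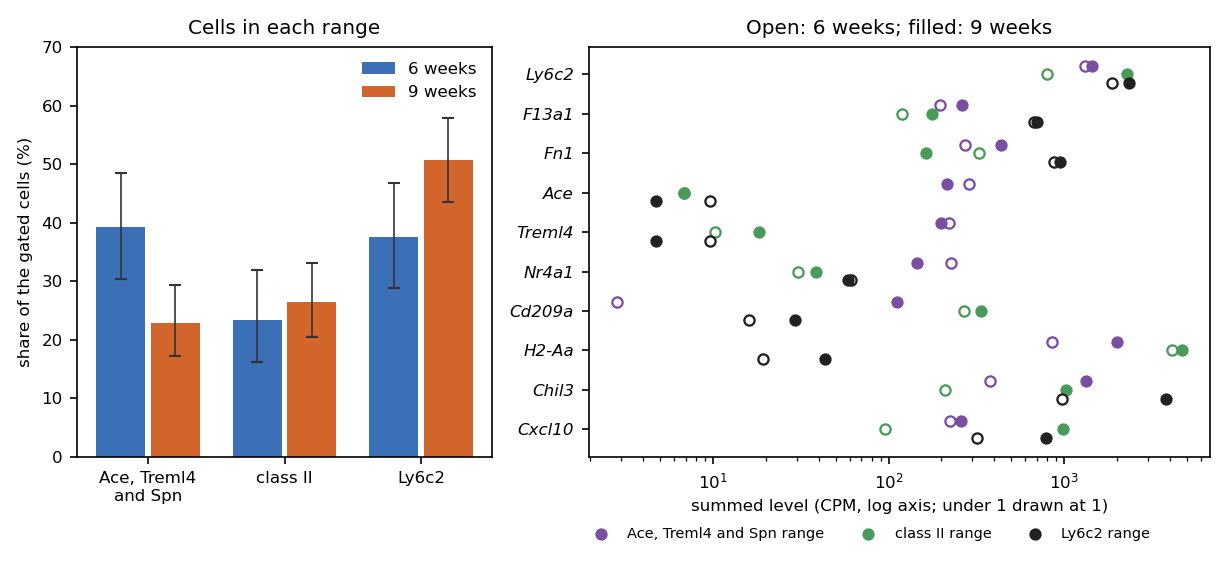
Left: share of the gated cells in each of 3 ranges at 6 weeks (blue) and 9 weeks (orange), with exact 95% intervals, which overlap in the class II and Ly6c2 ranges and not in the first, where they end at 30.4% and 29.3%. Right: summed levels (CPM, log axis) of 10 genes in the ranges, with open circles for 6 weeks and filled circles for 9 weeks; Nr4a1 is highest in the Ace, Treml4 and Spn range, F13a1 and Fn1 in the Ly6c2 range and Cd209a in the class II range at both ages.

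For the comparison of the ages, 8052 genes with at least 10 CPM in 1 library and 10 UMIs over both were measured. The ratio of 9 over 6 weeks was taken on the log2 scale after adding 5 CPM to each level, which pulls weakly expressed genes towards 0. Over all genes, 5.94% were at least 1.5-fold higher at 9 weeks and 7.85% at least 1.5-fold lower, and the median log2 ratio was -0.01. This split turned when the cells of mixed lineage were left out, with 8.12% of 7557 genes higher and 5.89% lower and a median of 0.03. The counts of each gene group below are read against these percentages. Groups were lists of genes by function. A gene that passed only through its level in 1 library was favoured to differ. The number of genes above 10 CPM in both libraries is therefore given where it matters. Over all genes, 7033 met that stricter bound, with 3.58% higher and 4.85% lower.

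Genes of the interferon gamma response were higher at 9 weeks. Of 25 listed, 22 were measured, with a median log2 ratio of 0.70; 14 of them were at least 1.5-fold higher and 0 lower, and the Poisson intervals of the ages lay apart for all 14. Of the 19 above 10 CPM in both libraries, 11 were higher (57.9%). Without the mixed cells 11 of 22 were higher, with a median of 0.57. With the 5 cells of each library that held most of the list's UMIs left out, the median was 0.73 and 14 were higher. The same list had a median of 0.51 in C1q macrophages, where that of all genes was -0.01, and of 1.37 in mature neutrophils, where that of all genes was -0.28. The difference between cell types was not tested.

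The chemokine gene Cxcl10, whose product draws T and NK cells through the receptor Cxcr3, had the highest level at 9 weeks of the list, 725 CPM (684 to 767), against 215 CPM (186 to 246) at 6 weeks, a log2 ratio of 1.73 (1.46 to 2.01). Its relative Cxcl9 was at 335 CPM at 6 weeks and 548 CPM at 9 weeks, a log2 ratio of 0.70. Guanylate-binding proteins, large GTPases that attack vacuoles holding microbes, were higher in 6 of 7 members measured. Gbp2 was at 122 CPM (101 to 146) and 315 CPM (289 to 344), a log2 ratio of 1.34. Gbp3 was at 62.5 and 128 CPM, Gbp5 at 62.5 and 97.9 CPM, and Gbp7 at 67.7 and 123 CPM. Gbp4 (12.5 and 41.7 CPM) and Gbp6 (8.3 and 26.6 CPM) were scarce at both ages, and Gbp9, at 26.1 and 35.7 CPM, was under 1.5-fold.

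Immunity-related GTPases, which act on the same vacuoles, were less uniform. Iigp1 was at 9.4 CPM (4.3 to 17.8) at 6 weeks and, at 9 weeks, 76.7 CPM (64.0 to 91.3), the largest ratio of the named genes, and 3 cells held 48.0% of its UMIs at 9 weeks. Igtp was at 50.03 CPM (36.9 to 66.3) and 108 CPM (92.3 to 125), while Irgm2 stood at 29.2 and 33.8 CPM. Of the signalling genes, the transcription factor gene Irf1 was at 124 and 203 CPM and Socs1, an inhibitor of the pathway, at 38.6 and 68.3 CPM. The other side of the list did not move past 1.5-fold: the checkpoint ligand gene Cd274 was at 15.6 and 15.7 CPM, the class II transactivator gene Ciita at 73.0 and 66.5 CPM, and Fcgr1, a high-affinity antibody receptor gene, at 138 and 167 CPM. Ido1 was at 0 at both ages, which allows up to 3.13 and 1.81 CPM.

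**Figure D3:**
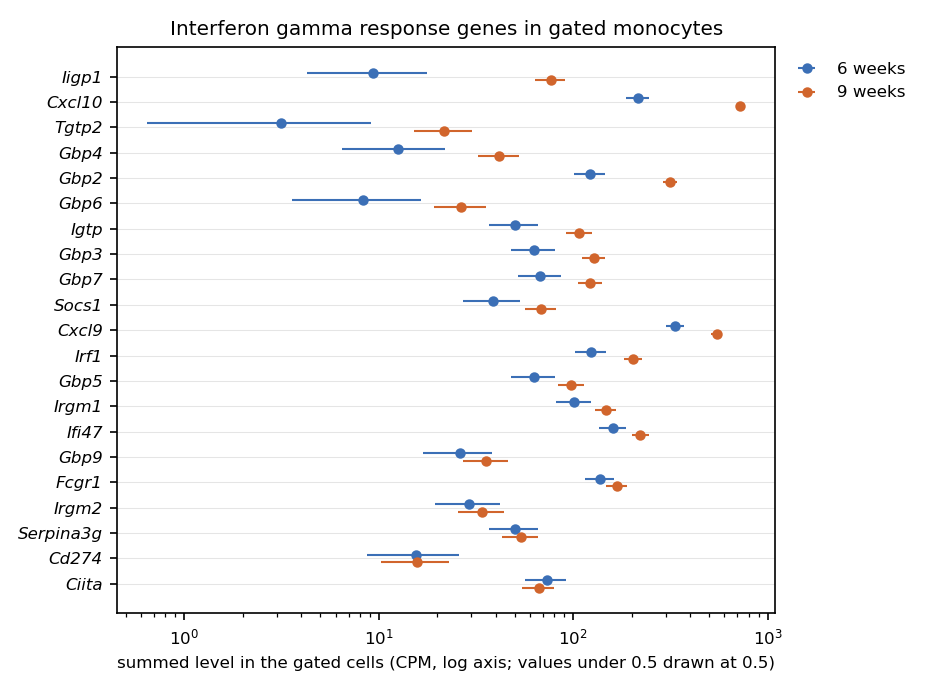
Summed levels (CPM, log axis) of 21 of the 22 measured genes of the interferon gamma response in the gated monocytes at 6 weeks (blue) and 9 weeks (orange), 1 library per age, with exact Poisson 95% intervals as bars, ordered by log2 ratio. The 9-week point lies to the right in 20 of them, all but Ciita, and the bars separate in the upper 13 genes and in Irgm1 and Ifi47.

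The promoters of 4 of these genes are shown so that the letters searched for interferon elements can be read: they belong to the members at 50 CPM or more with the largest ratios among those with a sequence to print. Each is the 250 bases before the annotated start, from RefSeq on GRCm38.p6, read 5′ to 3′ on the gene's strand. Capitals mark matches on either strand to the interferon-stimulated response element searched as GAAA, any 2 bases and GAAA, or to the gamma-activated site searched as TTCNNNGAA.
Cxcl10, chr5:92348890-92349139, minus strand: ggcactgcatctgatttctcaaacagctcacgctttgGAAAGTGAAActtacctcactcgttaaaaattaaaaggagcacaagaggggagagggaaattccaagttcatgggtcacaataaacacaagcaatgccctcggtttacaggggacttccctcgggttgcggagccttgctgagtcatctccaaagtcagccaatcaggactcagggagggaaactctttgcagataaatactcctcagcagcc
Gbp2, chr3:142620413-142620662, plus strand: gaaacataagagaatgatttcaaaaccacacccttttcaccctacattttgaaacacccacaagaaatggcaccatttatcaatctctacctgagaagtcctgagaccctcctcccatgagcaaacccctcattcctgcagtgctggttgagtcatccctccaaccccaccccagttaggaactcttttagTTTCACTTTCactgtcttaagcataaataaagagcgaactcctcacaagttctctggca
Igtp, chr11:58199306-58199555, plus strand: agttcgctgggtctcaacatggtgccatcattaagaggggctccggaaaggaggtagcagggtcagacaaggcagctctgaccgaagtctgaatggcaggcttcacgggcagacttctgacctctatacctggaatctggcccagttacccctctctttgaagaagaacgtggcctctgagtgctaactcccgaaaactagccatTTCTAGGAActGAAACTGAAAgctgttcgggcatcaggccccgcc
Gbp3, chr3:142559794-142560043, plus strand: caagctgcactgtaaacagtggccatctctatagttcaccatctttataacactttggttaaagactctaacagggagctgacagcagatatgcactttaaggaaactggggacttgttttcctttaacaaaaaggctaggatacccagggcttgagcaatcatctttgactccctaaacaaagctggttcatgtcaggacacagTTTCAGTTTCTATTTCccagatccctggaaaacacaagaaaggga

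In these windows the match began 213 bases before the start in Cxcl10, 59 bases before it in Gbp2 and 34 bases before it in Igtp, where a gamma-activated site match lay at 45 bases. Gbp3 held 2 overlapping matches to the response element, at 45 and 39 bases. Over 27025 promoters of this length, 3.05% held the first motif, 7.14% the second and 9.79% either. Of the 25 genes of the list, 17 had a promoter in the table, and 11 of these held the response element, 9 the gamma-activated site and 14 either. A match describes letters and is no evidence of binding.

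Within the gate, these transcripts were spread unevenly over cells. Cxcl10 was found in 15 of 120 cells at 6 weeks (12.5%) and 22 of 197 at 9 weeks (11.2%). Cells with at least 10 UMIs of it, 6 and 14 in number, held 87.9% and 97.7% of its UMIs, and the highest cell had 89 and 279 UMIs. At 2000 UMIs per cell, 9.17% (4.67 to 15.8) and 9.69% (5.94 to 14.7) of cells had a Cxcl10 UMI, so the higher summed level at 9 weeks went with more UMIs in few cells. Thinned C1q macrophages had a Cxcl10 UMI in 3.40% and 3.64% of cells. The mature neutrophils had 0 of 41 and 0 of 170, which allows up to 7.32% and 1.76%. For this, 89 and 173 shallower neutrophils were left out, and unthinned 0 and 2 neutrophils had a Cxcl10 UMI. Gbp2 was different, with a UMI in 10.0% (5.27 to 16.8) of thinned cells at 6 weeks and 26.02% (20.03 to 32.8) at 9 weeks, and 29.2% and 47.7% unthinned. Thinned C1q macrophages had a Gbp2 UMI in 9.46% and 17.1% of cells. Igtp reached at most 3 UMIs in a cell at 6 weeks and 9 at 9 weeks.

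**Figure D4:**
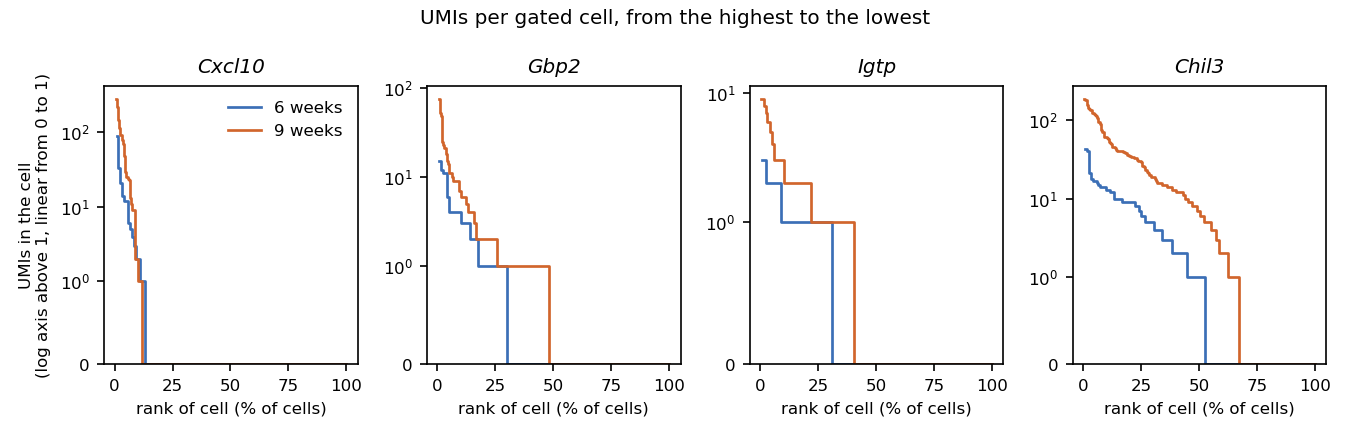
UMIs of Cxcl10, Gbp2, Igtp and Chil3 in each gated cell, with cells ranked from the highest to the lowest and the rank given as a percentage of the 120 cells at 6 weeks (blue) and of the 197 cells at 9 weeks (orange); the vertical axis is logarithmic above 1 UMI. Cxcl10 is confined to the leftmost 12.5% and 11.2% of cells, while the 9-week curves of Gbp2, Igtp and Chil3 start higher than the 6-week curves and reach further right.

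The ranges differed in these genes too. In the class II range, Gbp2 was at 139 CPM (100.03 to 189) at 6 weeks and, at 9 weeks, 549 CPM (482 to 623), and Cxcl10 at 95.2 and 993 CPM. In the Ly6c2 range, Gbp2 was at 57.7 and 272 CPM and Cxcl10 at 317 and 786 CPM. In the Ace, Treml4 and Spn range the levels of the ages overlapped, with Gbp2 at 164 CPM (125 to 212) and 137 CPM (101 to 180) and Cxcl10 at 224 CPM (177 to 279) and 259.8 CPM (210.2 to 318). Iigp1 followed this order, with 6.8 and 148 CPM in the class II range, 6.4 and 65.9 CPM in the Ly6c2 range and 14.1 and 16.4 CPM in the first range. These differences between ranges were not tested.

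Genes of the type I interferon response, by which cells answer viruses, showed smaller ratios. Of 35 listed, 33 were matched and 32 measured, with a median log2 ratio of 0.34 and with 4 higher (12.5%) and 0 lower. Among the 4 were Ifit1, at 22.9 CPM (14.4 to 34.7) and 71.9 CPM (59.6 to 86.1), Ifit2, at 28.1 and 61.0 CPM, and Slfn1, at 232 and 358 CPM. Isg15 (175 and 265 CPM) and Rtp4 (114 and 169 CPM) stayed just under 1.5-fold, and Rsad2 (52.1 and 44.7 CPM) and Oas3 (56.3 and 50.8 CPM) were on the lower side. Without the mixed cells, 6 of 31 were higher and the median was 0.36. The count depended on few cells. With the 5 cells of each library that held most of the list's UMIs left out, 12 of 31 were higher and 0 lower, with a median of 0.52. The list's median was 0.46 in C1q macrophages and 1.18 in neutrophils.

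Class I genes, which present peptides to CD8 T cells, were all on the higher side at 9 weeks. The 19 genes measured had a median of 0.42, with 3 past 1.5-fold (15.8%): H2-Q6 (12.5 and 38.1 CPM), H2-Q4 (59.4 and 98.5 CPM) and H2-T22 (80.3 and 131 CPM). These genes have close relatives in sequence, so their counts are uncertain. The abundant members had small ratios with intervals that lay apart, such as H2-K1 at 1394 and 1789 CPM and H2-D1 at 2267 and 2823 CPM. The immunoproteasome gene Psmb9 was at 267 and 402 CPM and the peptide transporter gene Tap1 at 122 and 162 CPM. Without the mixed cells 1 gene passed 1.5-fold, H2-Q6, with a list median of 0.34.

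The class II genes did not share one direction. Of 13 genes of the list, 10 were measured, with a median of 0.16, and 2 were higher, H2-Oa (3.1 and 15.1 CPM) and H2-DMb2 (8.3 and 16.3 CPM), both under 10 CPM at 6 weeks. H2-Aa stood at 1593 and 1717 CPM and Cd74 at 4369 and 5366 CPM. The sign of the median depended on the gate. It was -0.20 with at least 20 UMIs in the positive gate and -0.37 with cells thinned before gating. With a stricter C1q bound it was -0.08, and without the first range -0.24. Other settings raised it, to 0.28 without the mixed cells and to 0.32 without the 5 cells of each library that held most of the list's UMIs. The costimulatory gene Cd86 was at 45.9 and 30.2 CPM. Within the first range, class II genes were higher at 9 weeks, with H2-Aa at 855 CPM (761 to 957) and 2013 CPM (1870 to 2164). The dendritic cell genes Cd209a (2.8 and 112 CPM) and Mgl2 (0 and 76.6 CPM) moved with them there. These levels rest on 1 and 41 UMIs of Cd209a and on 0 and 28 UMIs of Mgl2. In the class II range, which class II genes define, H2-Aa was at 4148 and 4714 CPM.

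Genes of dendritic-like monocytes and type 2 dendritic cells were mixed, with 12 of 18 measured, a median of 0.11, and 3 higher and 3 lower. The lectin gene Mgl2 was at 13.5 and 58.0 CPM and Cd209a at 88.6 and 129 CPM, the latter under 1.5-fold, with a log2 ratio of 0.51 (0.95 without the mixed cells). Mgl2 was found in 3.33% and 6.09% of gated cells, and 3 cells held 92.3% and 65.6% of its UMIs. Flt3, the growth factor receptor of dendritic cells, was at 4.2 and 12.7 CPM, and Klrd1, a receptor gene also of NK cells, passed 1.5-fold too, with overlapping intervals. On the lower side were Itgax, the integrin CD11c, at 34.4 and 10.3 CPM, Cd300e at 19.8 and 7.3 CPM, and Traf1, a signalling adaptor, at 52.1 and 20.5 CPM. Cells with a Cd209a UMI were 13 at 6 weeks (10.8%) and 24 at 9 weeks (12.2%), and at 2000 UMIs 5.83% and 7.65%, against 0.425% and 0.260% of C1q macrophages at the same depth.

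Genes of non-classical monocytes were lower at 9 weeks. All 15 were measured, with a median log2 ratio of -0.60, 8 lower (53.3%) and 1 higher. Ace, the angiotensin-converting enzyme gene, was at 112 and 52.0 CPM, Treml4 at 87.5 and 51.4 CPM, Nr4a1 at 113 and 72.5 CPM, and Cx3cr1 at 359 and 230.2 CPM. The other 4 were the adhesion receptor gene Adgre4 (126 and 64.1 CPM), Pou2f2 (323 and 201 CPM), Gngt2 (689 and 440 CPM) and Eno3 (76.1 and 25.4 CPM). Intervals of the ages lay apart for all 8. The 1 on the higher side, Fabp4, had a log2 ratio of 1.27 that turned to -0.34 without the mixed cells, among which were 10 cells with endothelial markers at 9 weeks. Without these cells 8 of 15 were lower and 0 higher, with a median of -0.74. With the first range left out, the median of the list was 0.01. Within the range the intervals of the ages overlapped for Nr4a1 (226 and 145 CPM), Cx3cr1 (413 and 289.9 CPM), Treml4 (221 and 199.6 CPM) and Spn (156 and 175 CPM), of which the last was on the higher side, but not for Eno3 (201 and 101 CPM). Outside it, in the Ly6c2 range, Cx3cr1 was also lower at 9 weeks, at 436 CPM (366 to 516) and 226 CPM (195 to 260.1).

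Of the gate's own genes, Chil3 differed most between the ages. This chitinase-like gene of classical monocytes and other myeloid cells was at 519 CPM (474 to 567) at 6 weeks and, at 9 weeks, at 2528 CPM (2452 to 2606), and it was higher in each range (971 and 3812 CPM in the Ly6c2 range, 211 and 1030 CPM in the class II range). At 2000 UMIs, 38.3% (29.6 to 47.6) and 59.2% (52.0 to 66.1) of gated cells had a Chil3 UMI, and 51.7% and 67.0% unthinned. In C1q macrophages the thinned share was 0.425% and 3.21%, from median depths of 6520.5 and 7614 UMIs. Chil3 was also higher at 9 weeks outside the gate, at lower levels but with larger ratios. It was at 8.0 and 221 CPM in C1q macrophages and at 1.3 and 465 CPM over all other cells. These are log2 ratios of 4.11 and 6.23, against 2.27 in the gated cells. Immature granulocyte markers were also higher there at 9 weeks. In C1q macrophages 8 of them summed to 0.25 and 1388 CPM, and over all other cells Camp was at 0.29 and 1825 CPM. Whether the Chil3 UMIs outside the gate came from granulocytes was not tested. In the gated cells, Plac8 was at 3947 and 4896 CPM and Ccr2 at 1132 and 1345 CPM. Csf1r, the receptor for the growth factor of monocytes and macrophages, was at 435 and 365 CPM there. As the gate used these counts, none of them is a finding about it.

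Identity genes outside the gate were alike or slightly higher at 9 weeks. The list of 20 had 18 measured with a median of 0.27, with 2 higher, Vcan (51.1 and 79.8 CPM, with overlapping intervals) and Gm9733 (88.6 and 175 CPM). Hp was at 469 and 682 CPM and Ms4a4c at 644 and 909.5 CPM, each under 1.5-fold, while S100a4 was on the lower side, with 2181 and 1600 CPM. None of the 12 transcription factors passed 1.5-fold in either direction, among them Spi1 (693 and 595 CPM), which drives the myeloid lineage, Irf8 (301 and 284 CPM) and Klf4 (157 and 125 CPM). Of 16 trafficking genes, the integrin gene Itgb7 was higher (98.0 and 169 CPM) and Cx3cr1 lower, and the chemokine receptor gene Ccr1 (43.8 and 57.4 CPM) did not pass.

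Genes of neutrophil-like monocytes, a kind released in emergency production, included 3 of 12 that were at least 1.5-fold higher, S100a8 (33.4 and 66.5 CPM), S100a9 (43.8 and 81.0 CPM) and Lcn2 (3.1 and 23.6 CPM). At 6 weeks 3 cells held 96.9% of the S100a8 UMIs and 92.9% of the S100a9 UMIs. In the Ly6c2 range S100a8 was at 103 and 74.1 CPM, with overlapping intervals. It was at 0 and 62.9 CPM in the first range and at 0 and 54.7 CPM in the class II range. For S100a8 and S100a9 the share of gated cells with a UMI was 1.67% at 6 weeks and 28.1% at 9 weeks at 2000 UMIs, and 7.5% and 67.5% unthinned. C1q macrophages had 1.17% and 26.4% at the same depth and 2.89% and 63.0% unthinned, near the shares in the gated cells. Their summed S100a8 level was 5.8 and 1888 CPM. Whether these UMIs came from other cells was not tested. The other genes of the list, such as Mmp8 (40.6 and 46.5 CPM), Cd177 (55.2 and 53.2 CPM) and Padi4 (6.3 and 10.3 CPM), did not pass 1.5-fold.

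Of 13 inflammatory genes measured, 0 were higher at 9 weeks and 3 lower: the lectin genes Clec4e, which senses mycobacterial lipid and dead cells, at 130.3 CPM (108 to 155) and 49.6 CPM (39.4 to 61.5), and Clec4d, at 35.4 and 16.9 CPM, and the cytokine gene Tnf, at 27.1 and 14.5 CPM with overlapping intervals. Il1b was at 124 and 97.9 CPM, with opposite directions in the ranges: 147 and 22.3 CPM in the Ly6c2 range, 98.6 and 191 CPM in the class II range, and 124.5 and 161 CPM in the first range. Il1a and Il10 were at 0 in both libraries. Of 7 chemokine genes measured of 16 listed, 3 were higher, Cxcl9, Cxcl10 and Ccl5, with a median of 0.50. Without the mixed cells 5 of 8 were higher, with a median of 0.91. Ccl5 was at 47.9 CPM (35.1 to 64.0) and 154 CPM (136 to 174), with 82.6% and 64.3% of its UMIs in 3 cells, and it is also a gene of T and NK cells. Without the mixed cells its log2 ratio was 2.15. It was also higher in neutrophils (14.8 and 128 CPM) and over all other cells (115 and 343 CPM), and their part in its level here was not tested. The monocyte attractant Ccl2 was at 17.7 and 27.2 CPM, and Ccl6 at 803 and 984 CPM. Among 18 genes that respond to dissociation stress, Egr1 was higher (15.6 and 27.2 CPM) and Nr4a1 and Hspa1a lower, with Fos at 119 and 140 CPM.

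The 12 largest ratios in each direction, among genes at 50 CPM or more that stand at no less than 20% of their level in other cells, were taken by rule. Of the 12 higher at 9 weeks, Iigp1, Cxcl10, Ccl5, Ifit1, Gbp2, Igtp and Fabp4 are given above. Cfb, the complement factor B gene, was at 31.3 CPM (21.1 to 44.6) and 117 CPM (101 to 134), and in the class II range at 23.8 and 262 CPM. In macrophages it was at 14.05 and 18.8 CPM. Arsb, a lysosomal sulfatase gene, was at 14.6 CPM (7.98 to 24.5) and 61.0 CPM (49.7 to 74.2). UMIs of it were found in 10.0% and 31.5% of cells. Ly6a, the gene of the surface protein Sca-1, was at 79.2 and 220.0 CPM, and in macrophages at 80.5 and 397 CPM. Rnd3, a regulator of the cell skeleton, was at 50.03 and 108 CPM, and Sp140, a nuclear body gene of immune cells, at 57.3 and 122 CPM, in 30.8% and 58.9% of cells.

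Of the 12 named genes on the lower side, 4 encode enzymes of sterol and fatty acid synthesis, a grouping made after their values were seen. Msmo1 was at 118 CPM (97.1 to 142) and 42.9 CPM (33.5 to 54.1), Idi1 at 115 CPM (94.2 to 138) and 47.7 CPM (37.8 to 59.5), Fdps at 183 CPM (157 to 213) and 83.4 CPM (70.1 to 98.5), and Scd2 at 81.3 CPM (64.3 to 101) and 35.7 CPM (27.1 to 46.0). These are log2 ratios of -1.36, -1.18, -1.09 and -1.09, and without the mixed cells they were -0.95, -1.10, -1.33 and -1.07. Without the Ace, Treml4 and Spn range, Msmo1 was at -0.52 and Fdps at -0.53. All 4 were also on the lower side in macrophages and neutrophils, with -1.34 and -1.62 for Fdps. In the type 2 dendritic cells, of which there were few, Msmo1 (1.76) and Idi1 (1.77) were on the higher side. Adrenocortical markers in the gate moved the same way, as given above, and their part in these values was not tested beyond the leaving out of mixed cells.

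The other 8 lower genes were of several kinds. Ear2, a ribonuclease gene of non-classical monocytes, was at 124 and 47.7 CPM, and in the Ly6c2 range at 64.1 and 5.9 CPM. Bcl6, a transcriptional repressor gene, was at 76.1 and 29.0 CPM and lower in each range, with 105 and 60.2, 47.6 and 9.1, and 70.5 and 25.9 CPM. Ecrg4 (320.0 and 79.8 CPM) had 95.8% and 92.4% of its UMIs in 3 cells, and its ratio reversed under other gates. Gamt (108 and 45.9 CPM) and Mgst3 (95.9 and 40.5 CPM) were at -0.17 and 0.50 on the log2 scale without the mixed cells, so their ratios rested on those cells. Clec4e, Eno3 and Traf1 are given above.

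**Figure D5:**
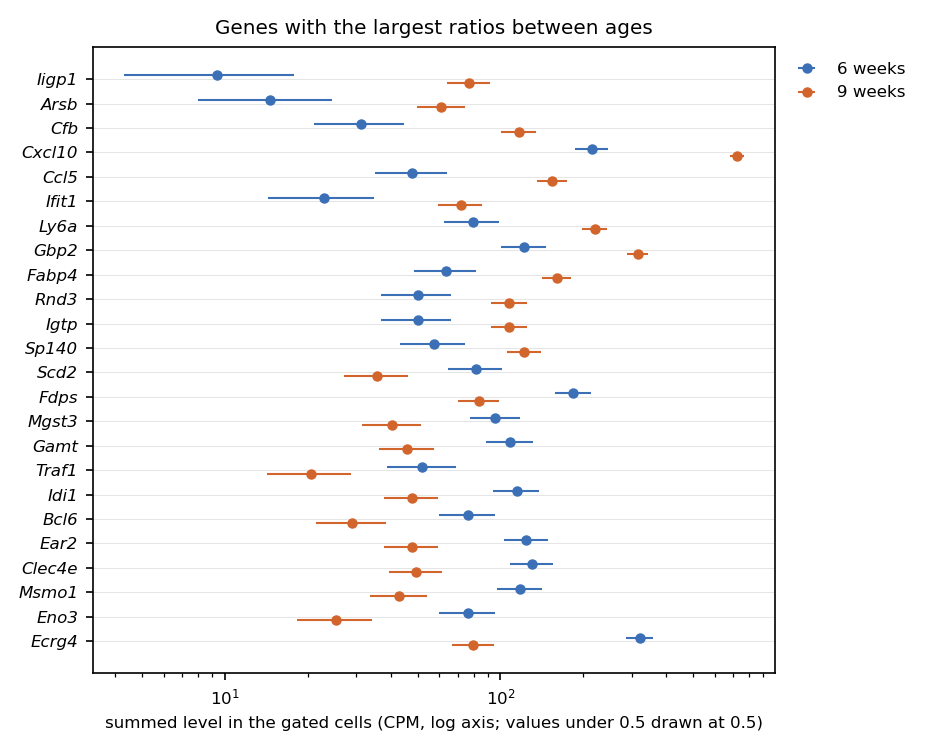
Summed levels (CPM, log axis) in the gated monocytes of the 24 genes with the largest ratios, at 6 weeks (blue) and 9 weeks (orange), with exact Poisson 95% intervals as bars, ordered by log2 ratio. The bars of the ages do not overlap in these genes, which were chosen for their ratios, and the ratios of Fabp4 and Mgst3 change sign when cells of mixed lineage are left out.

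Of 17 measured genes of the step to macrophages, 2 were higher, Mrc1 (9.4 and 21.2 CPM) and Ms4a7 (19.8 and 35.7 CPM), both with overlapping intervals, and 1 was lower, Lgmn (169 and 109 CPM), with a list median of -0.22. Without the mixed cells 4 of 18 were higher and 1 lower, with a median of -0.11. Of 15 genes of lipid-associated macrophages, Spp1 (4.2 and 35.1 CPM) and Fabp4 were higher and Fabp5 (153 and 73.1 CPM) and Itgax lower, with Trem2 at 63.6 and 62.2 CPM. Of 19 lysosomal genes, the dipeptidyl peptidase gene Ctsc was higher (552 and 874 CPM) and Lgmn lower. Of 21 Fc and scavenger receptor genes, Fcgr3 (219 and 334 CPM), Cd300lf (17.7 and 44.1 CPM) and Tlr4 (5.2 and 13.9 CPM) were higher.

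Few gated cells carried transcripts of mitosis genes. Cells with at least 2 UMIs over 14 mitosis genes at 2000 UMIs were 1 of 120 (0.833%, 0.021 to 4.56) at 6 weeks and 4 of 196 (2.04%, 0.559 to 5.14) at 9 weeks, and 3.33% and 3.55% unthinned. In C1q macrophages the thinned shares were 4.14% and 6.64%. All 7 mitosis genes measured were at least 1.5-fold higher at 9 weeks, with a median of 1.94, but none of them reached 10 CPM at 6 weeks, and 5 cells held 90.6% of the list's UMIs at 9 weeks. Top2a was at 7.3 and 47.1 CPM and Mki67 at 4.2 and 31.4 CPM. Of 9 DNA replication genes measured, 4 were higher and 0 lower, and each of the 4 was under 10 CPM at 6 weeks.

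Growth factor, repair and glycolysis genes were mixed. Of 10 growth and repair genes measured, Spp1 and Vcan were higher and Vegfa (12.5 and 4.2 CPM) and Pdgfb (30.2 and 15.7 CPM) lower, and Tgfb1 was at 415 CPM (375 to 458) and 283 CPM (258 to 310.3), under 1.5-fold. Of 16 genes of glycolysis and hypoxia, Pfkp was higher (44.8 and 74.3 CPM) and Vegfa and Bnip3 (56.3 and 25.99 CPM) lower, both of which had a positive log2 ratio without the mixed cells. Arg1 was at 0 in both libraries.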

How the data were processed

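The data are single-cell RNA sequencing of adrenal glands. The authors deposited raw counts, whole numbers of UMIs per gene and barcode. Cell Ranger 6.0.1, Seurat and the build mm10 are named, per the submitters' processing notes. No source used here gives the annotation release. Per the labels' protocols, red cells were lysed and viable cells sorted. Rows of the same symbol were summed (32285 rows, 32245 symbols). Barcodes with under 500 genes (161 and 221) or over 25% mitochondrial UMIs (111 and 64) were left out, which left 96477289 and 99360185 UMIs. The full gate asked, beside the genes named in the results, for C1qa, C1qb and C1qc under 10, Camp, Ngp and Retnlg at most 5, Xcr1 and Clec9a at most 1, no Siglech, Cd3e or Cd79a, and Elane, Prtn3, Mpo and Ctsg under 5 UMIs. Named genes outside the gate needed 50 CPM, 30 UMIs and UMIs in 10% of gated cells in the higher library, and 20% of the level in other classes and cells; mitochondrial, ribosomal, haemoglobin, immunoglobulin, T cell receptor and clone-named genes were left out, and the 12 largest log2 ratios each way were taken. Genes that mark the gate needed 100 CPM in both libraries. There were 21 gene lists and 17 marker lists. The ranges given with ratios join the bounds of both intervals, low over high and high over low. Ly6a2, Mx1, Mx2 and Clec7a were listed but are not analysed here, and a few listed genes are counted but not reported here by name. The computation was tested on simulated data. The work was done in Python 3.11.15 with scanpy 1.11.5 (Scrublet), pandas 2.3.3, scipy 1.17.1 and numpy 2.4.6. The members and lists were chosen with earlier results of these data known.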

Additional observations from a re-analysis of the deposited data

How the results depend on the processing

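No paired analysis was possible because there was 1 library per age and no replicate to match or leave out. The values come from 2 libraries, so differences between animals, pools and captures cannot be told apart from age, and depth limits genes under about 10 CPM. Counts of genes past 1.5-fold moved with the settings: 478 higher and 632 lower became 127 and 185 with 20 CPM added, 829 and 951 with no filter, and 99 and 139 from 50 CPM. The higher count was 907 with cells thinned before gating (63 and 107 cells) and 763 without the Ace, Treml4 and Spn range. The share of higher genes among those past 1.5-fold was 43.1%, and 58.0% without mixed cells, 54.4% without Scrublet calls, 53.5% with a positive gate of 20 UMIs and 51.8% with each cell weighted equally; the cause was not tested. With 1 CPM added, the mitosis median was 2.81, and it had no value with its 5 top cells left out. The class II median was -0.20 with the gate of 20 UMIs and -0.37 with thinning before gating. With C1q under 3 UMIs it was -0.083, and without the first range -0.24. It was 0.28 without mixed cells and 0.32 without its 5 top cells of each library. The non-classical median was 0.014 without the first range, by construction. Single genes that turned were Ecrg4 (1.82 with the gate of 20 UMIs, 1.95 without cells with Flt3 or Cd209a), Fabp4 (-0.73 without Scrublet calls, -0.34 without mixed cells), Gamt (0.36 without Scrublet calls), Mgst3 (0.48 and 0.50) and Eno3 (0.10 without the first range). Settings for mixed cells, for that range and for the top cells were chosen after seeing the data. As a share of all cells kept, the ratio of monocyte shares kept its direction in every selection, from 1.22 to 1.70. Its range in the main selection was 0.974 to 1.86. With other denominators it did not keep that direction. It was 0.573 among cells with a Ptprc UMI, 0.704 in the pool with C1q macrophages, 0.760 with mature neutrophils and 0.998 with type 2 dendritic cells.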
